A study of Mus musculus with 69 samples.

Results

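The Zeb, Snail and Twist transcription factors are 7 genes, Zeb1, Zeb2, Snai1, Snai2, Snai3, Twist1 and Twist2, which were taken by symbol from every deposited count table. Each of the 7 symbols matched 1 of 55964 gene IDs, and the genes were followed through 69 RNA sequencing libraries of pituitary, hypothalamus and ovary from female C57BL/6J mice in proestrus. The genotypes compared were 3. Zeb1_WT mice carry 2 unaltered Zeb1 alleles, Zeb1_200H mice carry 1 altered allele and Zeb1_200M mice carry 2, where the altered allele has point mutations at the miR-200a and miR-200b sites of its 3′ UTR. The allele is a germline knock-in present in every cell, and both cohorts mixed lines from a pair of embryonic stem cell clones, with the clone of each library not given in the sources used here. The young cohort was virgin and 8 to 12 weeks old, and the older cohort was 28 to 36 weeks old and had been through a breeding trial. The paper reports that most females with both alleles altered had no litters in that trial, and fewer litters than the other genotypes. In every older tissue, 200M mice as a group can therefore differ from WT and 200H in pregnancy history as well as in genotype. The part of each in the older 200M values was not tested. Groups held 4 libraries, each from a different mouse, apart from 3 in young WT pituitary, older 200M pituitary and older 200M hypothalamus. Zeb2 and the other 5 genes carry no engineered change.

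All 7 proteins repress or activate transcription through E-box motifs, and they are best known for driving epithelial cells toward a mesenchymal state in development and in cancer. Zeb1 and Zeb2 are zinc finger and homeobox repressors of epithelial genes, Snai1, Snai2 and Snai3 are zinc finger repressors, and Twist1 and Twist2 are basic helix-loop-helix factors that pair with E proteins. The miR-200 microRNAs silence Zeb1 and Zeb2 through sites in their 3′ UTRs, and the Zeb proteins in turn repress the miR-200 genes.

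The family has 2 seeds, the bases 2 to 8 that pair with a target, and its mature sequences are shown because the matches searched below pair with these seeds. They are from RefSeq on GRCm38.p6, with the seed in capitals. The sequences with the seed AAUACUG are
mmu-miR-200b-3p: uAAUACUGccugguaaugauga
mmu-miR-200c-3p: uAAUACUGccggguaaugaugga
mmu-miR-429-3p: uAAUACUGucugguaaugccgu
and those with the seed AACACUG are
mmu-miR-200a-3p: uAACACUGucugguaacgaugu
mmu-miR-141-3p: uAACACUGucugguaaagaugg

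In the annotated 3′ UTRs (GENCODE M21, GRCm38, longest per gene), Zeb1 and Zeb2 each held 9 seed matches of 7 bases. Each had 5 of CAGTATT, the match to miR-200b, and 4 of CAGTGTT, the match to miR-200a, searched on the transcript strand. Sites that pair with fewer seed bases, including those followed by an A, were not searched. The paper counts more predicted sites in Zeb2 than these 9. The 8mers, which add an A after the match, numbered 3 of CAGTATTA and 0 of CAGTGTTA in Zeb1, against 4 and 2 in Zeb2. Only 6 of 21027 3′ UTRs, 0.029%, held as many CAGTATT as Zeb2. Snai1 held 1 CAGTATT in its 731 nt, Snai2 held 1 match to each seed in its 1089 nt, and Snai3, Twist1 and Twist2 held none of either. For comparison, 13.3% of all 3′ UTRs had a CAGTATT and 17.1% had a CAGTGTT. The 6 Zeb2 sites with an 8mer are printed because they are intact in all 3 genotypes. Each is 20 bases on the minus strand, with the match in capitals.
Zeb2 site at chr2:44988355-44988374, miR-200a seed: aaattttgtaCAGTGTTAag
Zeb2 site at chr2:44988106-44988125, miR-200b seed: tacagtgcatCAGTATTAcg
Zeb2 site at chr2:44987782-44987801, miR-200a seed: gcaccagcttCAGTGTTAag
Zeb2 site at chr2:44987744-44987763, miR-200b seed: gcacccgtgtCAGTATTAga
Zeb2 site at chr2:44987659-44987678, miR-200b seed: ttaattttgtCAGTATTAca
Zeb2 site at chr2:44987525-44987544, miR-200b seed: ctgtagtgtaCAGTATTAta

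**Figure D1:**
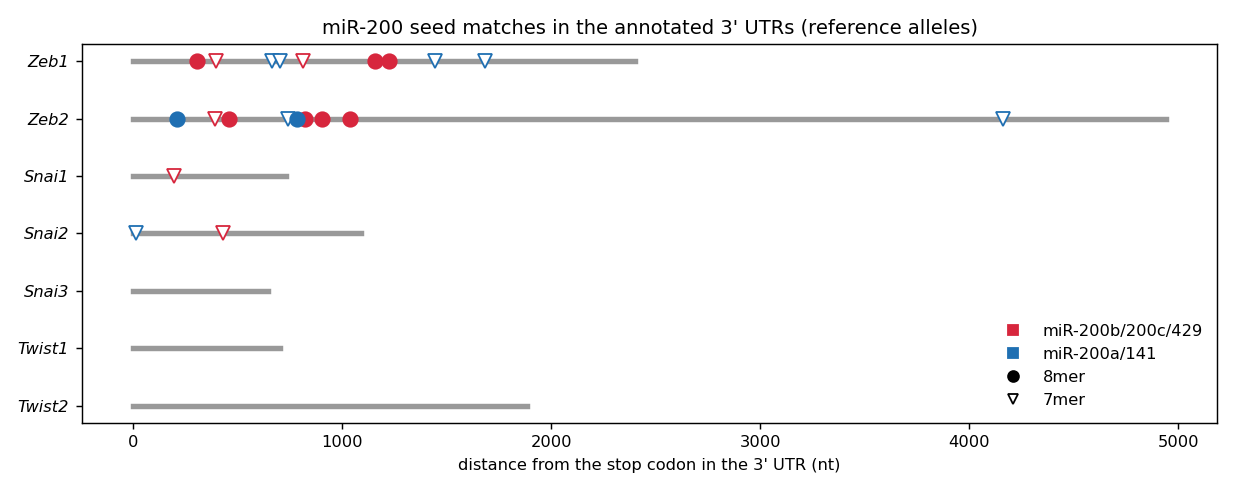
Positions of miR-200 seed matches along the 3′ UTR of each gene, as distance from the stop codon in nucleotides, in the reference sequence. Filled circles are 8mers, open triangles are 7mers, red marks the miR-200b seed and blue the miR-200a seed. Zeb1 and Zeb2 hold 9 matches each, and the other genes hold 2 or fewer.

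The genes lie apart from one another except that Zeb2 (ENSMUSG00000026872, chr2:44983632-45117395, minus strand) and Snai1 (ENSMUSG00000042821, chr2:167538195-167542814, plus strand) share a chromosome. Zeb1 is ENSMUSG00000024238 at chr18:5591860-5775467, Snai2 is ENSMUSG00000022676 at chr16:14705852-14709385 and Twist1 is ENSMUSG00000035799 at chr12:33957671-33959829, all on the plus strand. Snai3 (ENSMUSG00000006587) is at chr8:122454208-122460733 on the minus strand, and Twist2 (ENSMUSG00000007805) is at chr1:91801461-91848028 on the plus strand. The antisense gene Gm29100 shares 1477 exon bases with Twist2, Zeb2os shares 653 with Zeb2 and Gm10125 shares 198 with Zeb1. The older libraries were not stranded, so reads from those bases cannot be assigned to one strand there.

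Libraries of young hypothalamus held 3321845 to 5143128 counts in total, and the others held 4527753 to 14655095. The labelled tissues carried their defining genes. The 7 pituitary hormone markers (Prl, Gh, Pomc, Lhb, Fshb, Tshb, Cga) summed to 67407 CPM (counts scaled to a library size of 1000000) or more in every pituitary library, while 4 granulosa markers reached at least 600.1 CPM in every ovary. In hypothalamus the neuropeptide genes Agrp, Hcrt, Oxt and Avp summed to 61.8 CPM or more, although Agrp was under 1 CPM on average in each young group. The hormone genes summed to less in the altered pituitaries, at 67407 to 97558 CPM against 163009 to 186478 CPM in young WT, and at 150883 to 226389 CPM against 289718 to 321888 CPM in older WT. The sums do not describe each gene. By the edgeR test used below, 3 of the 7 were called lower and 0 higher in young 200M, and 3 lower and 1 higher in older 200M. Scaling by total counts without TMM factors moved the median log2 difference of all genes from WT in pituitary by 0.12 to 0.18. Fold changes are on the log2 scale (log2FC, with standard error s.e.) and relative to TMM scaling, the trimmed mean of M-values, unless another is named. Whole tissues were sequenced, so fewer cells of a type and less RNA per cell cannot be told apart in any result.

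The order of the 7 genes by level per length differed among the 3 WT tissues. Length is that of the merged exons of all annotated transcripts, 10266 nt for Zeb1, 19942 nt for Zeb2 and 2021 nt for Snai2. The order and the overlaps between genes depend on this length. In CPM without it, Zeb1 was above Snai2 in young WT pituitary, with means of 96.59 and 34.42 CPM. In young pituitary Snai2 had the highest level per length, at 17.0 ± 3.85 CPM per kb of exon (SD, n = 3), and Zeb1 followed at 9.41 ± 0.163 CPM per kb. Zeb2 was at 2.502 ± 0.215 CPM per kb, Snai1 at 1.67 ± 0.047 CPM per kb, and Twist1, Snai3 and Twist2 were under 0.4 CPM per kb with libraries that overlapped in the ranking. The libraries of the first 4 did not overlap with those of the next gene. In older pituitary Snai2, at 6.28 ± 2.88 CPM per kb (n = 4), and Zeb1, at 5.71 ± 0.302 CPM per kb, overlapped, while Zeb2, at 0.421 ± 0.0986 CPM per kb, stood below Snai1 and overlapped with Twist1.

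Hypothalamus had the Zeb genes on top. In young WT hypothalamus Zeb1 was at 21.6 ± 0.30 CPM per kb (n = 4) and Zeb2 at 11.6 ± 0.722 CPM per kb, and every other member was under 2 CPM per kb. The older WT hypothalami gave the same leading pair, at 13.2 ± 0.923 and 2.47 ± 0.22 CPM per kb, and the remaining members were under 0.5 CPM per kb. Ovary expressed most members. In young ovary the order was Zeb2 (50.3 ± 2.78 CPM per kb), Snai2 (32.2 ± 1.56), Zeb1 (19.5 ± 1.44), Snai1 (9.54 ± 0.787) and Twist1 (5.15 ± 0.205), with n = 4 and no overlap between neighbours. In older ovary Snai1, Zeb2, Twist1, Zeb1 and Snai2 lay between 7.62 and 11.2 CPM per kb and each overlapped with its neighbour. Without division by length, Zeb2 there had a mean of 221.5 CPM and Snai1 one of 18.22 CPM.

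**Figure D2:**
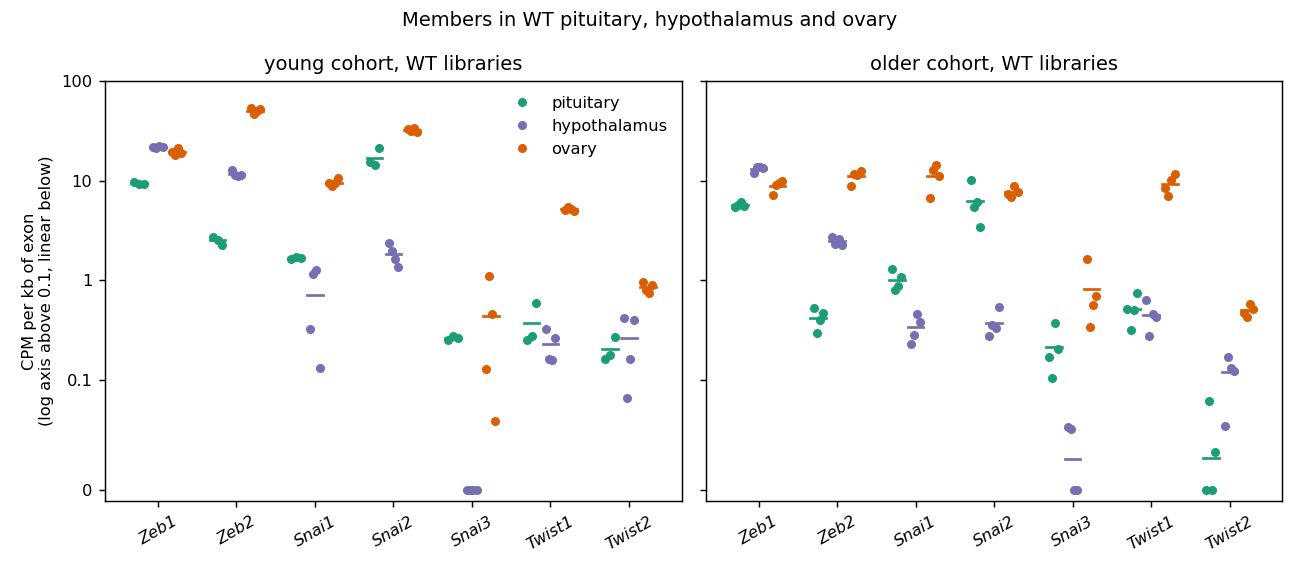
Level of each gene in WT libraries, in CPM per kb of exon on an axis that is logarithmic above 0.1 and linear below, for the young and older cohorts. Points are libraries, coloured by tissue, and short lines are means. Zeb2, Snai1 and Twist1 are highest in ovary in both cohorts, Zeb1 is highest in hypothalamus in the mean, and Snai2 is lowest in hypothalamus.

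The tissue differences of WT libraries were tested with the edgeR quasi-likelihood test on counts, with Benjamini-Hochberg adjustment over all tested genes and calls at an adjusted p under 0.05. Between young ovary and pituitary, 6 of 6 tested members were higher in ovary, where 35.6% of all tested genes were and 68.3% were called in either direction. The log2 difference was 4.17 for Zeb2 (s.e. 0.08, adjusted p = 2.18e-15), 3.60 for Twist1 (s.e. 0.30), 2.35 for Snai1 (s.e. 0.17), 1.89 for Twist2 (s.e. 0.39), 0.89 for Zeb1 (s.e. 0.07) and 0.76 for Snai2 (s.e. 0.12). In the older cohort 4 of 6 were higher in ovary, with a background of 41.7% (77.0% in either direction), and Zeb2 again differed the most among members, by 4.34 (s.e. 0.18, adjusted p = 1.31e-08). There Zeb1 at 0.24 (s.e. 0.11, adjusted p = 0.0646) and Snai2 at −0.10 (s.e. 0.27, adjusted p = 0.739) did not pass, although Zeb1 did with total counts (0.73, adjusted p = 6.99e-05), without a low-count filter (0.30, adjusted p = 0.0343) and without ovary WT replicate 1 (0.32, adjusted p = 0.00416). With total counts the median of all genes moved to 0.26 in young mice and 0.58 in the older comparison, and the share of called genes that were higher in ovary moved from 52.2% to 64.2% and from 54.1% to 72.7%.

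Pituitary and hypothalamus separated the Zeb genes from the Snail genes. Zeb1 was lower in pituitary by a log2 difference of −1.28 (s.e. 0.07) in young mice and −1.09 (s.e. 0.08) in older mice, and Zeb2 by −2.29 (s.e. 0.08) and −2.44 (s.e. 0.15). Snai2 was higher in pituitary by 3.15 (s.e. 0.20) and 4.14 (s.e. 0.36), and Snai1 by 1.19 (s.e. 0.47, adjusted p = 0.0265) and 1.65 (s.e. 0.32, adjusted p = 0.000274). These 4 were all the members tested in that contrast, so 2 of 4 were higher in pituitary, against backgrounds of 36.8% in young mice and 37.6% in older mice, and 2 of 4 were lower, against 35.4% and 39.2%. In either direction 72.2% and 76.8% of genes were called. The young Snai1 call was lost with DESeq2 (adjusted p = 0.119) and without hypothalamus WT replicate 1 or 4 (0.0991 and 0.132). Between ovary and hypothalamus, Zeb1 was the single member lower in ovary, by −0.43 (s.e. 0.06) and −0.91 (s.e. 0.11), where 36.1% and 38.5% of genes were lower. The 5 other tested members were higher in ovary, against 40.6% and 44.1% (76.7% and 82.6% in either direction), with Zeb2 at 1.84 in each cohort and Snai2 at 3.88 and 3.99.

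In pituitary, 2 members changed with genotype. Zeb1 rose and Snai2, also called Slug, fell, and both did so in 200M of both cohorts and in young 200H. Of 5 members tested in young 200M against WT, 2 were called, 1 higher and 1 lower, where 11.5% of all tested genes were higher and 10.0% lower. Of 4 tested in older 200M, 2 were called in the same directions, with backgrounds of 11.7% and 9.77%. In young 200H, 2 of 4 were called (6.56% higher and 5.72% lower among all genes), and in older 200H only Zeb1 was called (7.09% higher and 5.14% lower). Over both directions 21.5% and 12.3% of genes were called in young 200M and 200H, and 21.4% and 12.2% in older 200M and 200H.

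Zeb1 was at 98.5, 95.6 and 95.6 CPM in the 3 young WT pituitaries, at 135, 129, 126 and 129 CPM in the 200H and at 132.2, 136.1, 141.5 and 139.7 CPM in the 200M pituitaries. The altered libraries lay above every WT library, and 200H and 200M overlapped with each other. In the older cohort Zeb1 was at 55.3, 59.0, 62.7 and 57.5 CPM in WT, at 73.1, 76.1, 75.3 and 70.1 CPM in 200H and at 93.0, 83.5 and 80.6 CPM in 200M. Here the 3 genotypes did not overlap, yet 200M against 200H gave a log2FC of 0.21 (95% interval 0.05 to 0.37, adjusted p = 0.361). Zeb1 is the edited gene, so in pituitary its values check the WT label of both cohorts. In older mice the 200H and 200M values lay apart, but their difference was not called, so it does not verify those labels. Zeb1 values cannot tell young 200H from 200M.

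Snai2 was at 31.1, 28.9 and 43.3 CPM in young WT pituitaries. It was at 21.2, 18.2, 7.49 and 15.1 CPM in 200H and at 23.3, 14.7, 11.5 and 8.63 CPM in 200M. Every altered library was below every WT library, with a log2FC of −1.20 in 200M (s.e. 0.23, adjusted p = 0.00185) and −1.13 in 200H (s.e. 0.25, adjusted p = 0.00917). In the older cohort Snai2 was at 20.7, 10.9, 12.3 and 6.87 CPM in WT, at 12.6, 5.76, 8.72 and 7.30 CPM in 200H and at 4.46, 5.37 and 4.97 CPM in 200M. The 3 older 200M libraries lay below all WT libraries and below all 200H libraries, while 200H overlapped with WT. The log2FC was −1.33 in older 200M (s.e. 0.34, adjusted p = 0.0156) and −0.55 in older 200H (s.e. 0.31, adjusted p = 0.298, but 0.0275 without the filter on low counts).

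These Snai2 values rest on 68 to 404 counts per library in young mice and 21 to 149 in older mice. The older 200M call was lost when any 1 of the 3 200M libraries was left out (adjusted p = 0.0543 to 0.0587), and the young 200H call was lost without the WT library of 43.3 CPM, whose column gave it no matching replicate number (adjusted p = 0.0641). Without the older WT library of 20.7 CPM, replicate 1, the older 200M value was −0.98 (adjusted p = 0.0188, still called) and the 200H value was −0.20. Between 200M and 200H, 0 of 5 tested members in young and 0 of 4 in older pituitary were called, where 0.0383% of young and 0.121% of older genes were. At an unadjusted p under 0.05 there were 0 members in young mice and 2 in the older comparison, where 5.92% and 10.6% of genes were. DESeq2 called none of the members there. Snai2 differed by −0.08 (95% interval −0.65 to 0.49) in young mice and −0.79 (95% interval −1.32 to −0.26, adjusted p = 0.296) in older mice, and without the filter on low counts the latter passed (adjusted p = 0.0223).

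**Figure D3:**
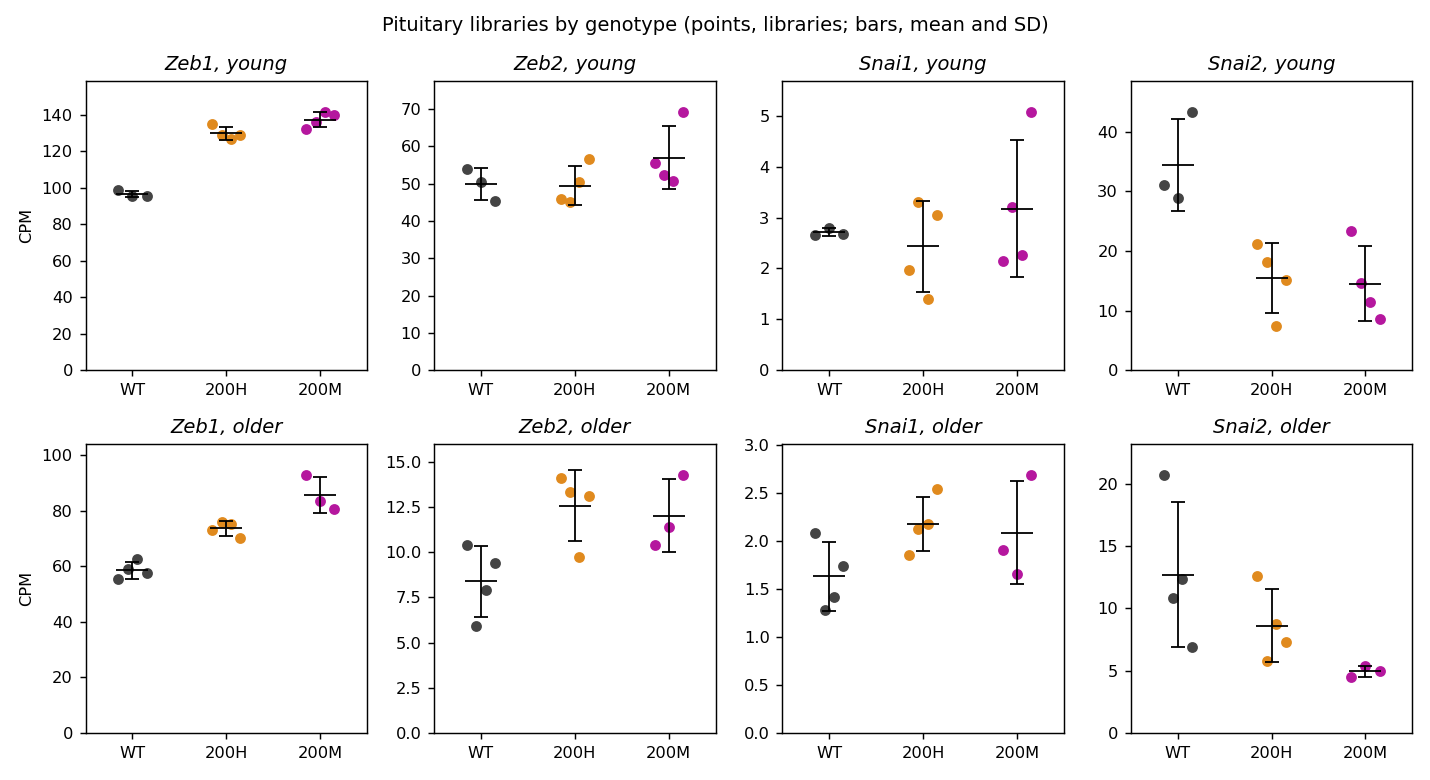
CPM of Zeb1, Zeb2, Snai1 and Snai2 in each pituitary library by genotype, with the young cohort above and the older below. Points are libraries, and bars are the mean and SD. Zeb1 in altered libraries lies above all WT libraries in both cohorts, and Snai2 in 200M lies below all of them.

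Snai2 is commonly found in stromal cells, so markers of those cells are given beside it. The list of 6 fibroblast and mural cell markers (Pdgfra, Pdgfrb, Col1a1, Dcn, Lum and Rgs5, all above 1 CPM) summed to 352.5 to 382.3 CPM in young WT and 473.6 to 559.1 CPM in young 200M, and to 276.2 to 353.0 CPM in older WT and 389.2 to 456.2 CPM in older 200M. In 200M, 3 of the 6 in young mice and 2 of the 6 in older mice were called higher and 0 lower. Of all tested genes, 11.5% in young and 11.7% in older 200M pituitary were called higher. These shares also apply to the pituitary marker lists that follow. Snai2 came to 7.63% to 12.3% of that sum in young WT against 1.54% to 4.92% in young 200M, and to 2.09% to 7.5% in older WT against 0.977% to 1.35% in older 200M. Of 4 endothelial markers (Pecam1, Cdh5, Kdr and Tek), 0 were called in 200M of either cohort. The hormone gene sum was also lower in 200M, at 6.74% to 8.72% of scaled counts in young 200M and 16.3% to 18.6% in young WT, and at 16.2% to 21.1% and 29.0% to 32.2% in older mice. The median log2FC of the 7 hormone genes was −0.12 in young and 0.00 in older 200M. The part of these lists in the Snai2 result was not tested.

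**Figure D4:**
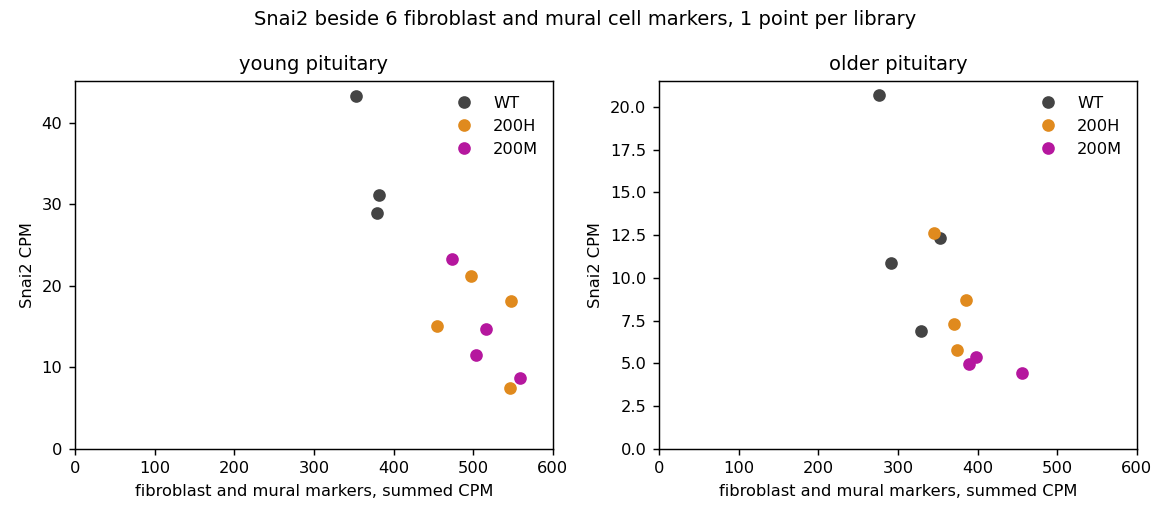
Snai2 in CPM against the summed CPM of 6 fibroblast and mural cell markers, with 1 point per pituitary library coloured by genotype, for the young and older cohorts. The 200M libraries have higher marker sums and lower Snai2 values than the WT libraries in both cohorts.

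Zeb2, the paralog of Zeb1 with intact miR-200 sites, did not pass the test in pituitary. It was at 53.9, 50.5 and 45.4 CPM in young WT, at 45.9, 45.1, 50.3 and 56.6 CPM in 200H and at 55.4, 52.3, 50.6 and 69.2 CPM in 200M. Genotypes overlapped, and the log2FC was 0.20 in 200M (95% interval −0.01 to 0.40, adjusted p = 0.224) and 0.00 in 200H (95% interval −0.20 to 0.20). In older pituitaries Zeb2 was at 10.4, 5.90, 7.88 and 9.38 CPM in WT, at 14.1, 13.3, 9.71 and 13.1 CPM in 200H and at 10.4, 11.4 and 14.3 CPM in 200M. Of the altered libraries 3 of 4 200H and 2 of 3 200M lay above every WT library. The log2FC was 0.53 in older 200M (95% interval 0.11 to 0.94, adjusted p = 0.0983) and 0.61 in older 200H (95% interval 0.24 to 0.98, adjusted p = 0.055). The latter passed with DESeq2 (adjusted p = 0.0416), with all 3 genotypes in 1 fit (0.0346), without the low-count filter (0.0104) and with total counts (0.0155), as well as without WT replicate 1 (0.0407) or 200H replicate 3 (0.0448). With total counts both 200M comparisons also passed, at 0.32 (adjusted p = 0.0479) in young mice and 0.70 (adjusted p = 0.029) in older mice. Older pituitary counts of Zeb2 were only 39 to 125 per library.

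The markers of microglia and macrophages, cells that also express Zeb2, moved in the same direction in pituitary. Cx3cr1, Csf1r, Aif1 and C1qa summed to 21.6 to 26.1 CPM in young WT and 35.5 to 42.9 CPM in young 200M, where 3 of 3 tested were called higher and Aif1 was under 1 CPM. They summed to 56.0 to 69.8 CPM in older WT and 79.8 to 112.7 CPM in older 200M, where 1 of 4 was called higher. Their part in the Zeb2 values was not tested.

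Markers of neurons, pituicytes and astrocytes were in part called higher in 200M pituitary too, while those of oligodendrocytes were not. Of 4 oligodendrocyte markers 2 were tested in each cohort, with 0 called higher and 1 called lower in 200M. Their median log2FC was −0.46 in young and −0.39 in older 200M. The neuronal genes Snap25, Rbfox3, Syt1 and Tubb3 summed to 777.1 to 843.3 CPM in young WT and 939.7 to 1007 CPM in young 200M, and to 544.3 to 589.6 CPM and 785.2 to 846.2 CPM in older mice, and 3 of 4 and 4 of 4 were called higher. The pituicyte markers Col25a1 and Nkx2-1 summed to 91.8 to 112.9 CPM in young WT and 118.3 to 143.9 CPM in 200M, and to 56.5 to 67.5 CPM and 76.0 to 106.6 CPM in older mice, with 2 of 2 and 1 of 2 called higher. Astrocyte markers (Gfap, Aqp4 and Aldh1l1) summed to 26.2 to 28.4 CPM in young WT and 27.1 to 31.7 CPM in 200M, and to 12.8 to 21.9 CPM and 39.8 to 47.9 CPM in older mice, with 1 of 3 and 2 of 3 called higher. The part of these lists in the Zeb1, Zeb2 and Snai2 values was not tested. The sums are RNA levels and do not count cells. From intron reads, those of neuronal genes included, the paper proposes that the pituitary changes are largely transcriptional changes in the anterior pituitary. Smooth muscle markers (Acta2 and Myh11) gave 0 calls in 200M of either cohort, with a median log2FC of 0.67 in young and 0.19 in older 200M.

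The balance of Zeb1 and Zeb2 counts was compared within libraries. In young WT pituitary the geometric mean ratio of Zeb1 to Zeb2 counts was 1.94, and it was 2.64 in 200H and 2.43 in 200M. All 4 200H libraries lay above the WT range of 1.83 to 2.11, as did 3 of 4 200M libraries. In older pituitary the ratio was 7.13 in WT, 5.92 in 200H and 7.18 in 200M, with no altered library above the WT range of 5.31 to 10.0. In hypothalamus the WT ratio was 0.961 in young mice and 2.76 in older mice, and in ovary 0.199 and 0.411. By a two-sided exact permutation test the smallest of 12 p-values was 0.0571, in young 200H pituitary (n = 4 and 3, where 0.0571 is the smallest possible) and young 200H ovary (n = 4 each, where 0.0286 is). Adjusted over the 12 comparisons of altered with WT libraries, all were 0.206 or higher. The cohorts differ in age, breeding history, RNA selection and counting, and these cannot be told apart in any difference of the ratio between them.

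Snai1, a labile repressor of E-cadherin, was at 2.66 to 2.80 CPM in young WT, 1.40 to 3.31 CPM in 200H and 2.15 to 5.08 CPM in 200M pituitaries. In the older cohort it was at 1.28 to 2.09 CPM in WT, 1.85 to 2.54 CPM in 200H and 1.66 to 2.69 CPM in 200M. Groups overlapped in each cohort, and the 200M log2FC values were 0.19 (95% interval −0.42 to 0.80) and 0.33 (95% interval −0.29 to 0.95). Twist1 had 4 to 9 counts in young WT and 9 to 17 counts in young 200M pituitaries, a log2FC of 0.87 (s.e. 0.46, adjusted p = 0.212), and it was below the filter on low counts in older pituitary. Twist2 was at 0 to 10 counts in every pituitary library and was not tested.

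Snai3, the least expressed Snail gene, could not be tested in pituitary either. Its counts in young pituitary were 4, 4 and 4 in WT, 0, 0, 0 and 3 in 200H and 0, 1, 0 and 1 in 200M. In the older cohort they were 2, 2, 3 and 3 in WT, 4, 1, 1 and 2 in 200H and 1, 0 and 1 in 200M. Every young altered library was below the WT libraries, but without the filter the adjusted p of 200M against WT was 0.161. What could be detected at this depth was not tested.

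In hypothalamus and ovary, 0 members were called in the 12 comparisons of genotypes. Not all members could be tested. Each young hypothalamus comparison tested 3, the older ones 3 to 5, young ovary 6 and older ovary 7. The backgrounds there were 0.0200% and 0.00622% in young and older 200M hypothalamus against WT and 2.58% and 2.71% in 200M ovary. For 200H against WT they were 0.0202% in young hypothalamus, 0.00510% in young ovary and 0% in the older tissues, and for 200M against 200H 1.61% in older ovary and 0% in the rest. At an unadjusted p under 0.05, edgeR gave 2 members in young and 1 in older 200M hypothalamus against WT, and 1 in each ovary cohort. Of all genes 5.65% and 18.1% were under that p in those hypothalami and 16.2% and 16.5% in those ovaries. For 200H it gave 1 member in each hypothalamus cohort and in young ovary and 0 in older ovary, and for 200M against 200H 2 in older hypothalamus, 1 in older ovary and 0 in the young tissues, with 2.8% to 7.05% of all genes under that p in the 200H contrasts, 19.5% and 13% in the older and 4.6% and 3.36% in the young contrasts of 200M with 200H. DESeq2 called 0 and 632 genes over all in the 200M hypothalami and 606 and 1324 in the 200M ovaries, with 0 members called in any of the 12. Without the low-count filter edgeR called 1, Zeb2 in older 200M against 200H hypothalamus (log2FC −0.41, adjusted p = 0.00357).

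The edited gene had no higher mean there, so its level checks no genotype label in these tissues. Zeb1 was at 218.6 to 226.0 CPM in young WT hypothalami and 177.3 to 210.8 CPM in 200M, which did not overlap, with a log2FC of −0.17 (95% interval −0.31 to −0.03, adjusted p = 0.871). In older hypothalami it was at 122.0 to 142.1 CPM in WT and 109.4 to 119.3 CPM in 200M, again without overlap. In ovary Zeb1 was at 185.5 to 220.3 CPM in young WT and 179.6 to 198.5 CPM in 200M, and at 72.8 to 101.5 CPM and 57.7 to 89.5 CPM in older mice, with overlap in each.

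Zeb2 outside the pituitary had a negative value in both altered genotypes of each tissue and cohort apart from older 200H hypothalamus, but no difference passed. In young hypothalamus it was at 252.3, 226.3, 220.9 and 224.6 CPM in WT and 203.6, 195.8, 196.3 and 198.4 CPM in 200H. Those libraries did not overlap, and the log2FC was −0.22 (s.e. 0.06, adjusted p = 0.714). In older hypothalamus the 200H libraries, at 54.2 to 61.0 CPM, all lay above WT, at 45.0 to 53.7 CPM, with a log2FC of 0.20 (s.e. 0.08, adjusted p = 1). In young ovary Zeb2 was at 932.3 to 1057 CPM in WT, 728.2 to 925.1 CPM in 200H and 638.8 to 949.1 CPM in 200M, and the fold change was −0.22 (adjusted p = 0.591) in 200H and −0.29 (adjusted p = 0.142) in 200M. In older ovary the values were 176.7 to 251.2, 167.7 to 222.2 and 103.2 to 239.8 CPM.

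Snai2 in ovary was at 61.9 to 68.3 CPM in young WT and 59.9 to 79.8 CPM in 200M, and at 13.8 to 17.7 CPM in older WT and 15.0 to 27.5 CPM in 200M, and its fold changes on the log2 scale were 0.18 (adjusted p = 0.364, but 0.0342 without 200M replicate 2) and 0.39 (adjusted p = 0.354). Twist2 in older ovary was at 1.35 to 1.83 CPM in WT and 2.07 to 3.89 CPM in 200M without overlap, a log2FC of 0.85 (s.e. 0.26, adjusted p = 0.138) on 17 to 39 counts. Its young ovary fold change was 0.50 (s.e. 0.25, adjusted p = 0.343). Twist1 in ovary was at 8.11 to 8.87 CPM in young WT and 6.44 to 8.74 CPM in 200M. Snai1 in ovary was at 14.2 to 17.2 CPM in young WT and 14.9 to 18.6 CPM in 200M, with 10.8 to 23.3 and 11.9 to 15.7 CPM in older mice. Snai3 reached 14 counts in 1 young WT ovary and 30 in 1 older WT ovary, and 1 and 7 in the lowest of those groups, and its older 200M log2FC was −0.82 (s.e. 0.53, adjusted p = 0.463).

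**Figure D5:**
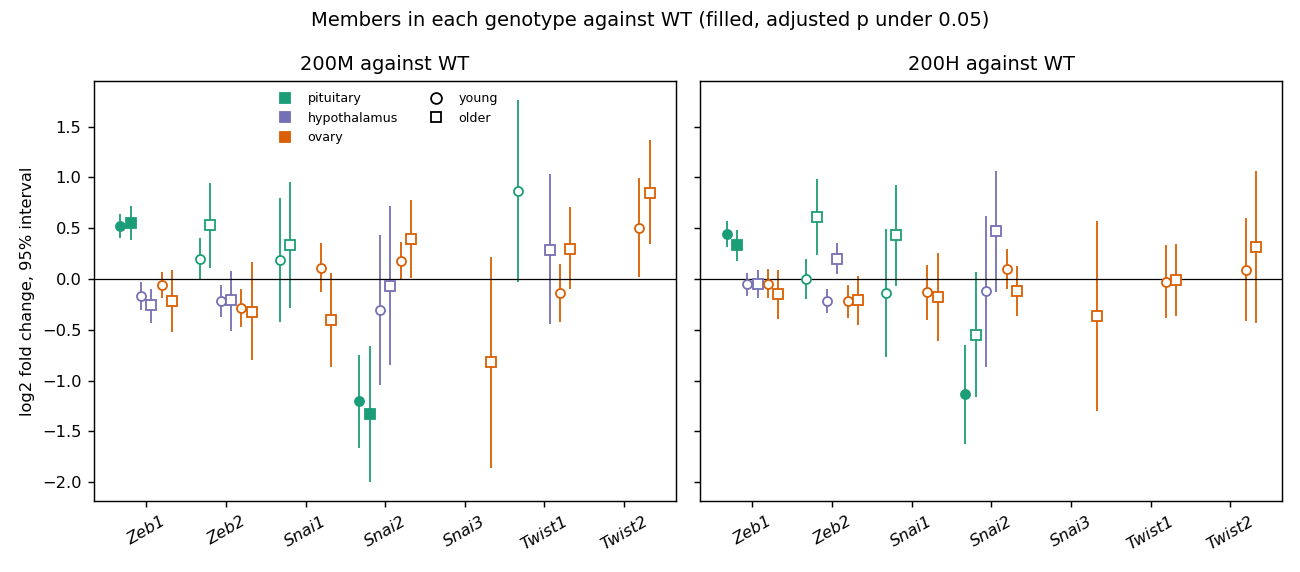
Log2 fold change of each tested gene in 200M and 200H against WT, with 95% intervals, by tissue (colour) and cohort (circle, young; square, older). Filled symbols have an adjusted p under 0.05. In these comparisons filled symbols occur only for Zeb1 and Snai2 in pituitary.

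Whether the 200M effect on a member differed between tissues was tested as an interaction. For Zeb1 the effect was larger in pituitary than in hypothalamus by 0.69 in young mice and 0.81 in older mice, and larger than in ovary by 0.59 and 0.79, all with an adjusted p of 0.0301 or lower. For Snai2 it was lower in pituitary than in ovary by −1.38 (s.e. 0.27, adjusted p = 0.0021) in young mice and −1.72 (s.e. 0.41, adjusted p = 0.0252) in older mice. Against hypothalamus, where Snai2 had 4 to 20 counts per library, the difference was −0.90 (adjusted p = 0.295) and −1.27 (adjusted p = 0.148). Zeb2 came close in the young cohort, with differences of 0.41 (adjusted p = 0.0525) against hypothalamus and 0.48 (adjusted p = 0.0527) against ovary, and had 0.75 (adjusted p = 0.0626) and 0.86 (adjusted p = 0.184) in the older one. Against hypothalamus 1 of 4 tested members was called in young and 1 of 5 in older mice, where 10.5% and 17.5% of genes were. Against ovary 2 of 6 and 2 of 7 were called, where 10.1% and 5.77% of genes were. By direction the backgrounds were 6.64% and 10.4% higher against hypothalamus, 5.68% and 3.29% higher against ovary and 4.45% and 2.48% lower against ovary. The older calls against ovary were lost in several fits. That of Zeb1 was lost with the length trend removed (adjusted p = 0.0701), without any 1 of the 3 older 200M pituitaries (0.0524 to 0.0797), without pituitary WT replicate 1 or 2 (0.0535 and 0.0508) and without ovary WT replicate 2, 3 or 4 (0.0596, 0.0587 and 0.0585). That of Snai2 was lost without any 1 of the 3 older 200M pituitaries (0.0587 to 0.0696) and without ovary WT replicate 2 (0.053). Zeb2 passed with DESeq2 against older hypothalamus (0.0349) and young ovary (0.0212), with RLE scaling (DESeq2's size factors) against young ovary (0.0433), without the low-count filter against older hypothalamus (0.0058), young hypothalamus (0.0191) and young ovary (0.00064), and in its young and older hypothalamus and young ovary contrasts when some single libraries were left out (0.0249 to 0.0495). Without pituitary WT replicate 4 the older Snai2 difference from hypothalamus passed (−1.49, adjusted p = 0.0448), and without the unnumbered young WT pituitary the Twist1 difference from ovary did (1.54, adjusted p = 0.0415).

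The young and older 200M effects on the members were compared by an interaction test in each tissue, with 5 members tested in pituitary, 3 in hypothalamus and 7 in ovary. Of these, 0 members were called against backgrounds of 0.0273% in pituitary, 0.154% in hypothalamus and 0.197% in ovary. At an unadjusted p under 0.05 edgeR gave 0 members in these 3 contrasts, where 6.85%, 10.3% and 12% of genes were, and DESeq2 called none of them. For Snai2 in pituitary the older effect minus the young was −0.16 (95% interval −1.10 to 0.77), and for Zeb1 it was −0.03 (95% interval −0.22 to 0.17). The step from 200H to 200M was compared with the step from WT to 200H as a departure from additivity on the log2 scale. No member was called of 5 tested in young and 4 in older pituitary (background 1.58% and 1.85%). At an unadjusted p under 0.05 there were 2 members in young and 1 in older pituitary, the latter Zeb2 at −0.69 (s.e. 0.32). The young pair were Zeb1, at −0.35 (s.e. 0.10, adjusted p = 0.0869), which DESeq2 called (adjusted p = 0.0142), and Snai2, at 1.06 (s.e. 0.49, adjusted p = 0.376, but 0.000349 without the low-count filter). The steps from WT to 200H and from 200H to 200M were 0.44 and 0.08 for Zeb1 and −1.13 and −0.08 for Snai2. In hypothalamus and ovary 0 members were called for a departure from additivity, of 3 and 5 tested in young and older hypothalamus and 6 and 7 in ovary. There 0.0650% of genes were called in older ovary and 0% in the rest. At an unadjusted p under 0.05 there was 1 member, Zeb2 in older hypothalamus at −0.61 (s.e. 0.22), which was called without the low-count filter (−0.62, adjusted p = 0.0344). Of all genes 8.27% were under that p in older hypothalamus, 12.9% in young pituitary and 12.3% in older pituitary.

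Genes around the members were described from lists chosen with earlier results known, by counts beside all tested genes. In 200M pituitary 21.5% of all tested genes in young mice and 21.4% in older mice were called, with 11.5% and 11.7% higher and 10.0% and 9.77% lower, and the median of all genes was 0.00 and −0.01. Epithelial genes that Zeb and Snail proteins repress moved together in pituitary. Of 14 tested in 200M, 11 (78.6%) were lower and 0 higher in each cohort, and their median log2FC was −1.35 in young mice and −1.58 in older mice against 0.00 and −0.01 over all genes. Esrp1, a splicing regulator, fell with a log2FC of −3.88 in young and −3.96 in older 200M. The values were −3.83 and −3.76 for Rab25, an epithelial vesicle GTPase, −3.40 and −2.92 for Crb3, a polarity protein, and −3.29 and −3.45 for Epcam, an adhesion molecule. Crb3 was near the floor in young mice, with means of 2.447 CPM in WT and 0.2594 CPM in 200M, so the size of its young value (s.e. 0.58) is uncertain. Esrp1, Rab25 and Epcam are named by the study from these libraries. In hypothalamus and ovary 0 of the list was called in 200M, with 3 tested in young hypothalamus and 15 in older ovary.

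Both listed miR-200 host transcripts fell in 200M and 200H pituitaries of both cohorts. Gm13648 was at 14.6 to 17.6 CPM in young WT, 2.29 to 4.09 CPM in 200H and 2.00 to 2.54 CPM in 200M, a log2FC of −2.79 in 200M (s.e. 0.16). In the older cohort it was at 5.46 to 8.73 CPM in WT and 0.414 to 1.41 CPM in 200M. Gm15884 was at 1.61 to 2.80 CPM in young WT and 0.154 to 0.990 CPM in 200M. The WT and altered pituitaries did not overlap for either. In ovary Gm15884 was at 24.6 to 29.2 CPM in older WT but at 0.127 to 0.507 CPM in young WT, cohorts that differ in strandedness, age and RNA selection. In hypothalamus both hosts were under 1 CPM in every library.

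Twist proteins act as dimers with E proteins, and the Id proteins block that pairing. Of 7 listed partner and Id genes, 2 were lower and 0 higher in young 200M pituitary, and 3 were lower and 0 higher in older 200M, which is 28.6% and 42.9% called beside 21.5% and 21.4% of all genes. Id1 fell with a log2FC of −1.29 (s.e. 0.36, adjusted p = 0.0187) in young and −1.57 (s.e. 0.21, adjusted p = 0.000321) in older 200M, and Id2 with −0.66 and −0.73. The list median was −0.17 and −0.23, where that of all genes was 0.00 and −0.01.

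Of 15 corepressors and cofactors, 2 were higher and 3 lower in young 200M pituitary, and 1 was higher and 2 lower in older mice, with medians of 0.01 and −0.05. The share called was 33.3% and 20%, and in older mice it was near the background of 21.4%. Kat2b, an acetyltransferase, rose by a log2FC of 0.35 and 0.48. Ezh2, a histone methyltransferase, fell (−0.50 and −1.06), as did Smad3, a TGF-beta effector (−0.41 and −0.37). The corepressors Ctbp1 and Ctbp2 were not among the genes called in both cohorts. Of 12 ligases, kinases and deubiquitinases listed for the member proteins, 3 were higher and 1 lower in young and 2 higher and 0 lower in older 200M. That is 33.3% and 16.7% called, the latter below the share of all genes, with a median of 0.09 in each cohort. Pak1, a kinase, rose by 0.46 and 0.38, and Btrc, a ubiquitin ligase subunit, rose by 0.34 and 0.28.

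Signals that induce the members were mixed. Of 17 tested, 4 were higher and 3 lower in young and 2 higher and 3 lower in older 200M pituitary, 41.2% and 29.4% called beside 21.5% and 21.4% of all genes, with medians of 0.03 and 0.20. The receptor Tgfbr2 rose by 0.34 and 0.41, while the ligands Egf (−0.65 and −0.73) and Tgfb3 (−0.53 and −0.77) and the NF-kappaB subunit Rela (−0.46 and −0.44) fell. Of 11 tested relatives and other regulators of the mesenchymal state, 4 were higher and 0 lower in young and 3 higher and 1 lower in older 200M, 36.4% in each cohort beside the same backgrounds, with medians of 0.01 and 0.36. Foxc1, a forkhead factor, rose by 0.49 and 0.69, and Ets1 rose by 0.33 and 0.36. In hypothalamus 0 genes of any list were called in 200M, and in ovary 3 were, 1 Twist partner or Id gene and 1 inducing signal in young mice and 1 regulator in older mice.

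Other genes were ranked by how closely they followed each member over the 9 group means of each cohort, by the lower of the 2 Pearson correlations of log2 CPM. The 9 points are 3 genotypes in each of 3 tissues, so they share tissues and genotypes. Among 15937 genes Zeb2 was followed most closely by Strn (0.997 in young mice and 0.998 in older mice), Mst1r and Gja1. Snai1 was followed by Ston1 (0.995 and 0.998), the collagen gene Col3a1 and Arhgap28, and Snai2 by Prickle3 (0.995 and 0.992), Col1a2 and Fpgs. Twist1 was nearest to Hoxb3os (0.988 and 0.993), Pramef12 and Tagln, and Zeb1 to Plxna2 (0.964 and 0.968), Zfp770 and Atp2b4. Snai3 and Twist2 were under the level of 1 CPM needed. Over the 11 pituitary libraries of each cohort, which share genotype differences, Zeb1 was nearest to Mctp1 (0.966 and 0.960), Syt11 and Acot7 among 14304 genes. The nearest to Zeb2, Strada (0.698 and 0.816), Smc6 and Dusp15, had lower correlations.

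E-box sequences were searched in 300-base promoters (RefSeq, GRCm38.p6), which were present for Zeb2, Snai1, Twist1 and Twist2. The motifs CAGGTG and CAGGTA were looked for on both strands. Snai1 held 1 CAGGTG, and the 4 Zeb2 promoters and those of Twist1 and Twist2 held neither. Of 32851 promoters, 29.5% held at least 1 of the motifs.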

How the data were processed

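RNA sequencing counts per gene were used from 69 libraries in 18 groups. Per the labels and the study's methods, the authors aligned reads to mm10 (GRCm38) with STAR 2.7.1a, and the deposited counts are raw, with no normalization. Young libraries were rRNA-depleted and stranded and were counted with featureCounts. Older libraries were poly(A)-selected and unstranded, counted with HTSeq 0.9.1 in pituitary and hypothalamus and with featureCounts in ovary. The authors' fold changes and p-values (DESeq2 1.18 and 1.38.3) were not used, nor were 141 per-sample columns. Libraries were tabulated in 18 tables, and 66 stood in more than 1 with 0 differing values. The other 3, young WT pituitary, were taken from the table of 200M against WT, since the table of 200H against WT gives 2 WT columns 1 name. Those WT columns were not used or compared, so young 200H pituitaries were tested against WT columns of another table. Symbols were found for 99.54% of gene IDs, and 0 rows named no gene.

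Tests used edgeR 4.0.16 (quasi-likelihood, filterByExpr, TMM) in R 4.3.3 with limma 3.58.1, Benjamini-Hochberg adjustment over all tested genes and a threshold of 0.05, and were tested on simulated data. CPM is the count scaled to a library size of 1000000, where the size is all counts times the TMM factor. Standard errors were taken from the F statistic, and 95% intervals are normal approximations. DESeq2 1.42.0, other scalings, no filter, removal of the length trend, all 3 genotypes in 1 fit, a replicate block and leaving out each library were alternatives. Total counts per library set the precision and are given with the results. Over 99 pairs of libraries within groups the lowest chi-square per degree of freedom was 1.89, so no library was a copy of another in its group. Libraries of different groups were not compared in this way.

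The members and lists were chosen with earlier results of these data known. Named genes are the 7 members, the 3 genes most like each, and up to 4 genes per list with an adjusted p under 0.05 in 200M of both cohorts, by size of change in young mice. Some marker results are not reported here.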

Additional observations from a re-analysis of the deposited data

Results flagged for a closer look

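Of 103 groups of 4 libraries, 7 held a library far from the other three by Dixon's criterion, which chance gives in about 1 in 20 groups. Zeb1 was at 124.8 CPM in older 200H hypothalamus replicate 2. Zeb2 was at 252.3 CPM in young WT hypothalamus replicate 1, a library behind the WT and 200H values given above. Snai2 was at 1.005 CPM in young 200H hypothalamus replicate 2. Snai3 was at 0.316 CPM in young 200H pituitary replicate 4 and at 0.5776 CPM in young 200H hypothalamus replicate 4, with the rest of each group at 0 counts. Twist2 was at 0.8488 CPM in young 200H pituitary replicate 2 and at 2.365 CPM in young 200M ovary replicate 3.

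The 200M effect differed between tissues by the interaction test in 6 cases. For Zeb1 the pituitary effect exceeded that in hypothalamus by 0.69 in young and 0.81 in older libraries, and that in ovary by 0.59 and 0.79. For Snai2 the pituitary effect was below that in ovary by −1.38 and −1.72. The causes were not tested.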

How the results depend on the processing

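Over 2828 alternative values of the members, 2641 kept their direction and their side of the threshold, 123 changed sign with neither value called, 24 lost a call, 40 gained one and 0 called values reversed. DESeq2 called the young pituitary departure of Zeb1 from additivity (−0.35), and dropping the low-count filter called Snai2 in older 200H pituitary (−0.55). The Zeb1 difference of pituitary from ovary in older mice was not called with the length trend removed (0.63), and Zeb1 in older WT ovary against pituitary was called with total counts (0.73) and without the filter (0.30). Leaving out 1 library gave −1.54 to −0.98 for Snai2 in older 200M pituitary, −1.32 to −0.91 for Snai2 in young 200H pituitary, 0.67 to 0.88 for Zeb1 in older pituitary minus ovary and 0.17 to 0.32 for Zeb1 in older WT ovary against pituitary. In no comparison did every same-numbered pair of libraries have correlated deviations above 0.1, so the numbers were not taken to pair them. This rule cannot show that libraries of different tissues came from different mice. The main tests between tissues treated them as independent. With the replicate block, Zeb1 in pituitary minus ovary was no longer called (young 0.54, adjusted p = 0.0767; older 0.78, adjusted p = 0.148), Snai2 in older pituitary minus ovary (−1.84, adjusted p = 0.057) and Snai1 in young WT pituitary against hypothalamus (1.15, adjusted p = 0.141) were not either, while Zeb1 in older WT ovary against pituitary (0.23) and, in older pituitary minus hypothalamus, Zeb2 (0.89, adjusted p = 0.0277) and Snai2 (−1.63, adjusted p = 0.0471) were, and Snai2 in young pituitary was −0.67 in 200M and −0.60 in 200H, both called, a fit that rests on the numbers both groups hold and so not on the unnumbered WT library. The block lowered the genes called in 200M ovary from 497 to 150 in young and from 482 to 101 in older mice. Total counts raised those called in older 200H pituitary from 1825 to 2859, and the share called higher in 200M pituitary from 53.5% to 76.8% in young and from 54.4% to 84% in older mice. DESeq2 called 1324 genes in older 200M ovary and 632 in older 200M hypothalamus, where edgeR called 482 and 1. The causes were not tested. Counts of Snai3, Twist2 and, in pituitary and hypothalamus, Twist1 and Snai1 were low, and the size of difference that could be detected at such counts was not tested.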
